A study of Mus musculus with 24 samples.

Results

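The transmitter receptor genes of the mouse array were followed through pineal gland and retina, by day and by night, with and without the transcription factor gene Neurod1. Members were taken by symbol: every gene with 1 symbol in the array's annotation whose name marks a receptor for GABA, glutamate, glycine, acetylcholine or serotonin, leaving out Gabrb1 and Grik1. This gave 73 of 18193 genes, each measured by 1 probe set, the one with the highest mean signal over 24 arrays. The symbol rule also took Grina and Grid2ip, which are receptor-associated proteins and no subunits, and it took receptors that act through G proteins beside the ion channels: 6 metabotropic glutamate receptors, 3 muscarinic receptors and 11 serotonin receptors.

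The mice were C57BL/6J, 2 months old, of both sexes, and housed in 12 h of light and 12 h of darkness. All carried 2 floxed Neurod1 alleles. Controls had no Cre (NeuroD1flox/flox::Crx-Cre-/-), and the conditional knockouts (cKO) carried Crx-Cre (NeuroD1flox/flox::Crx-Cre+/-), which acts in cells that use the Crx promoter, mainly photoreceptors and pinealocytes. Organs were taken at ZT6, 6 h after lights on, or at ZT20, at night and under dim red light. Each of the 8 groups had 3 pools of 6 glands or 6 retinas, and each pool gave 1 array. Whole organs were used, so fewer cells of a type and less RNA per cell cannot be told apart. With 3 pools in each group the smallest 2-sided p of an exact permutation test is 0.1, so p-values come from limma models fitted across all tested genes, with Benjamini-Hochberg adjustment and a threshold of 0.05.

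Ionotropic receptors are ion channels built from several subunits, and the subunits that a cell makes set which transmitter opens the channel, how fast it closes and which ions pass. In the retina photoreceptors release glutamate onto bipolar and horizontal cells, and amacrine cells release GABA, glycine or acetylcholine onto bipolar and ganglion cells. The pineal gland has few synapses. Its pinealocytes take their nightly signal from sympathetic fibres that release noradrenaline, and they are also known to carry nicotinic acetylcholine receptors.

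Signals are quantile-normalised array intensities with no unit, comparable between pools for 1 gene but not between genes. Changes are given as differences of log2(signal + 16), which understate the change of dim genes. The files give no detection call, so a signal far below the array median of 134 was not told apart from background. A gene was tested in a tissue when it lay above the array median on 3 or more of that tissue's 12 arrays. Of the 73 members 22 were tested in the pineal gland and 44 in the retina, 21 of them in both. The NMDA receptor subunit gene Grin2c was tested in the pineal gland and not in the retina. The remaining 28 members were tested in neither tissue, among them all 3 muscarinic receptors, the muscle-type nicotinic subunits Chrna1, Chrnd, Chrne and Chrng, the GABA-A subunits Gabra5 and Gabra6, the NMDA subunit Grin2a and 8 of 13 serotonin receptor genes. The signals of these 28 reached at most 172 in pineal gland (Chrm3) and 114 in retina (Chrm1), and 20 of them stayed under 30 on every pineal array.

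Neurod1 itself was checked first, since it tests the labels. In pineal gland at ZT6 it measured 4774 ± 100.4 in controls (SD, n = 3) and 84.5, 36.7 and 33.9 in the 3 cKO pools, a log2 change of -6.22 (SE 0.89, adjusted p = 0.010). At ZT20 the cKO pineal pools measured 28.6, 2001 and 864 against 3376 ± 519.6 in controls, so pools 2 and 3 kept 59.3% and 25.6% of the control mean and the change of -2.97 missed the threshold (adjusted p = 0.31). The cKO retina pools at ZT20 measured 336, 3864 and 3525 against 7682 ± 192, so again the libraries labelled cKO pools 2 and 3 went against their label, with 50.3% and 45.9% of the control mean (change -2.19, adjusted p = 0.051). At ZT6 the retina change was -3.80 (SE 0.66, adjusted p = 0.0019). Without these 4 ZT20 libraries, which leaves 1 cKO pool at ZT20 in each tissue that is assumed to vary like the other groups, the Neurod1 changes at ZT20 were -6.24 in pineal gland and -4.45 in retina (adjusted p 5.1e-07 and 1.5e-05), and members called in a comparison of cKO pools at ZT20 are also given without them where they could be tested. The pineal call at ZT6 also ended without control ZT6 pool 1 (adjusted p = 0.065). The tissues matched their labels: all 8 rod photoreceptor markers matched on the array were higher in control retina than in control pineal gland, and Tph1, the first enzyme of serotonin synthesis, measured 10754 to 12104 on pineal and 64.9 to 382 on retina arrays.

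A nicotinic pair had far higher signals in control pineal gland than in control retina. Chrna3 and Chrnb4 encode the subunits of the ganglionic type of nicotinic acetylcholine receptor. They lie side by side on chromosome 9, after Chrna5, which encodes an accessory subunit of the same receptors; RefSeq places no other protein-coding gene between the 3. On the same array Gabrr2 and Gabrr1, neighbours on chromosome 4, encode the rho subunits that form the slow GABA-C receptor of bipolar cells, and both were higher in retina. The 250 bases before the annotated start of these genes are printed because these neighbouring genes include those with large tissue differences and, in Chrna5, one without. They come from RefSeq (GRCm38.p6), 5′ to 3′ on the strand of the gene. Capitals mark CANNTG, the E-box that NeuroD1 and other basic helix-loop-helix factors bind, and TAATCC on either strand, the core recognised by Crx and Otx2.

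Chrna5 first start, chr9:54980630-54980879, plus strand: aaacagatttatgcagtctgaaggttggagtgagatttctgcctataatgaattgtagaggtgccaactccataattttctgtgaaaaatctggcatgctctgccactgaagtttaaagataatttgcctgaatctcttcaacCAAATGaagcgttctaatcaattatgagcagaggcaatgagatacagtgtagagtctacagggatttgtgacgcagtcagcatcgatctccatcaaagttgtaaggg
Chrna5 second start, chr9:54981238-54981487, plus strand: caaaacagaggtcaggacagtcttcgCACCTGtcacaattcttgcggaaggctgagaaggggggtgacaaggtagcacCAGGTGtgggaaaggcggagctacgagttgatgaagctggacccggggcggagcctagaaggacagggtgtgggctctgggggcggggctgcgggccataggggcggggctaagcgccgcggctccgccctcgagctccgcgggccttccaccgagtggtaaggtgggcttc
Chrna3, chr9:55026563-55026812, minus strand: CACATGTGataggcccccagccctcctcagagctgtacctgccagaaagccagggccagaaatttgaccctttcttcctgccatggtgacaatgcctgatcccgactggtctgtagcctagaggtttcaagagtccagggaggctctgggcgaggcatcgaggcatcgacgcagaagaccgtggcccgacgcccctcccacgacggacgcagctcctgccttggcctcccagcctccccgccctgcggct
Chrnb4, chr9:55048545-55048794, minus strand: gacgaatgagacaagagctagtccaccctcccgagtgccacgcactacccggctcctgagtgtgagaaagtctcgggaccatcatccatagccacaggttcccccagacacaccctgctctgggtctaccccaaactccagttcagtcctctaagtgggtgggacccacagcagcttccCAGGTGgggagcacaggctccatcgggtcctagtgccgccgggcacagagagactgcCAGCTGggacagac
Gabrr2, chr4:33062862-33063111, plus strand: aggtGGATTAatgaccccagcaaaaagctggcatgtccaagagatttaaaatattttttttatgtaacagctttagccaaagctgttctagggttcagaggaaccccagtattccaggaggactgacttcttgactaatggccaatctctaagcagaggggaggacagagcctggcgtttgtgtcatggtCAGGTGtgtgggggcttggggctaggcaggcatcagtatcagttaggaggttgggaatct
Gabrr1, chr4:33132306-33132555, plus strand: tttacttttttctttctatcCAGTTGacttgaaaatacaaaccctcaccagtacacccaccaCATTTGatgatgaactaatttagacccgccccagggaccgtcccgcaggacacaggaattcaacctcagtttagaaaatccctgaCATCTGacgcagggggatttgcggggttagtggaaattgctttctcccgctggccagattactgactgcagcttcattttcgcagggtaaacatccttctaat

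CANNTG occurred in 66.2% of all 32851 RefSeq promoter windows of this length, and TAATCC in 6.25%. Promoter entries were found for 54 of the 73 members, of which 33 had a CANNTG and 4 a TAATCC (Chrm4, Chrne, Gabra2 and Gabrr2). In the Chrnb4 window CANNTG began 71 and 14 bases before the start. The Chrna3 window held 2 that overlapped each other at its far end. Gabrr2 had the only TAATCC of the windows shown, read on the opposite strand and beginning 246 bases before the start, and no TAATCC overlapped a CANNTG. Such matches describe letters and not sites.

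In control animals Chrna3 measured 6767 to 7756 in the 6 pineal pools (median 7496) and 205 to 341 in the 6 retina pools (median 280.2). Chrnb4 measured 6957 to 8101 in pineal gland (median 7677) and 51.6 to 115 in retina (median 93.1). Every pineal pool exceeded every retina pool for both genes. The log2 difference, retina minus pineal gland, was -4.66 for Chrna3 (SE 0.07, 25.2-fold) and -6.24 for Chrnb4 (SE 0.13, 75.3-fold), with adjusted p-values of 5.0e-22 and 1.2e-20. A second probe set gave -5.41 for Chrna3 and -6.42 for Chrnb4. Their neighbour Chrna5 measured 149.7 to 218 in pineal gland and 117 to 237 in retina, ranges that overlapped, and its difference of 0.11 missed the threshold (95% confidence interval -0.16 to 0.38, adjusted p = 0.44). Chrna7, which forms receptors of 1 subunit type with high calcium flow, was also higher in pineal gland, by a smaller margin (-0.89, SE 0.08, adjusted p = 1.1e-09). Of the remaining nicotinic subunits tested, Chrna6, Chrna2, Chrna4, Chrnb3 and Chrnb1 were higher in retina, by 6.10, 3.07, 2.89, 2.57 and 0.84, and Chrnb2 was not called. Chrna6, Chrna2, Chrna4 and Chrnb3 passed the filter through retina arrays alone.

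Across the set, 42 of the 45 members tested in the 24-array fit passed the threshold between control tissues, 35 higher in retina and 7 higher in pineal gland, where 79.7% of all tested genes passed, 37.2% higher and 42.4% lower in retina. These counts are set in part by the filter, since 23 of the members entered through retina arrays alone and Grin2c through pineal arrays alone. Of the 21 members above the array median in each tissue, 12 were higher in retina, 6 higher in pineal gland and 3 were not called (Chrna5, Chrnb2 and the serotonin receptor gene Htr2b), against 76.6% called, 36.3% higher and 40.3% lower in retina, among all 10820 genes of that kind. Where a member had a second bright probe set, its sign was the same for 24 of 24 such probe sets.

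**Figure D1:**
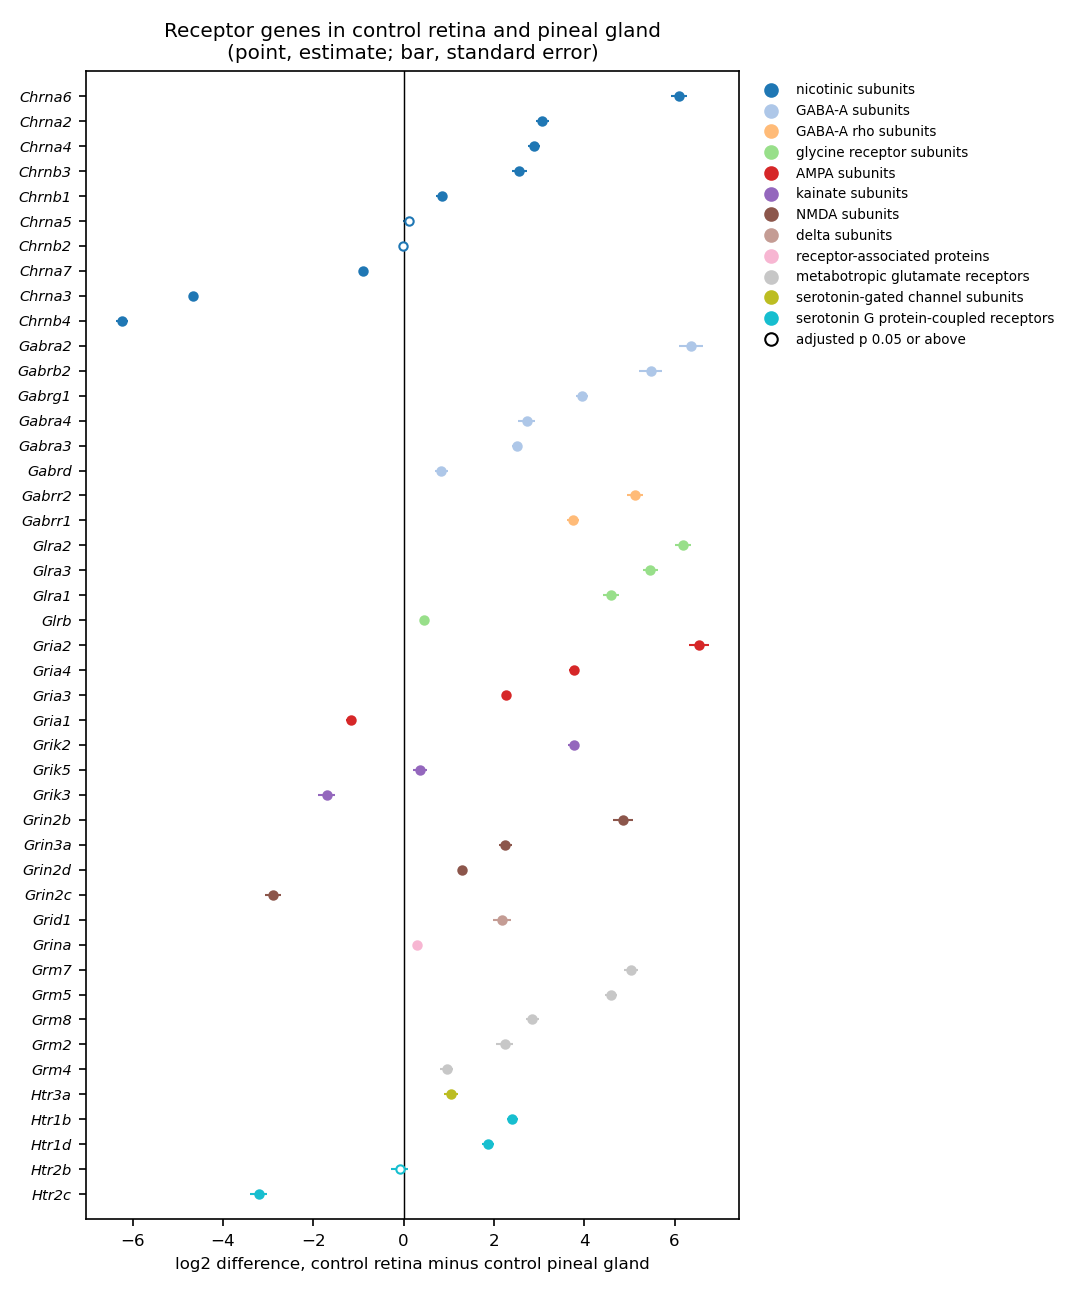
Log2 difference in signal, control retina minus control pineal gland, for the 45 members tested in the 24-array fit, grouped by receptor class (point, estimate; bar, standard error; open symbol, not called). Chrnb4 (-6.24), Chrna3 (-4.66), Htr2c (-3.20), Grin2c (-2.89), Grik3 (-1.70), Gria1 (-1.17) and Chrna7 (-0.89) lie on the pineal side. All tested GABA-A, rho, glycine and metabotropic members lie on the retina side. Of these, only Gabra3, Gabra4, Gabrd, Gabrr1, Glrb and Grm4 were tested in each tissue. The others passed the filter through retina arrays alone, so their side was set in part by the filter.

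Glutamate receptor subunits split by member within each channel family. Gria2, Grik2, Grin2b and Grin3a passed the filter through retina arrays alone, and Grin2c through pineal arrays alone. Of the AMPA subunits, Gria2, whose edited form blocks calcium, measured 3193 to 4201 in control retina (median 3463) and 12.6 to 45.7 in control pineal gland (median 21.8) (6.54, SE 0.23, adjusted p = 3.3e-17). The pineal signal was far below the array median, so the size depends on the added constant, from 5.38 with 64 to 7.29 with 1; the same holds for the other members that were dim in pineal gland. Gria4 and Gria3 were also higher in retina (3.78 and 2.26). Gria1 went the other way, with 1381 to 2672 in pineal gland and 659.8 to 915 in retina, no overlap (-1.17, SE 0.10, adjusted p = 1.3e-10). Of the kainate subunits Grik2 was higher in retina (3.76) and Grik3 in pineal gland (-1.70, SE 0.18). Of the NMDA receptor subunits, Grin2b (4.86), Grin3a (2.26) and Grin2d (1.30) were higher in retina and Grin2c in pineal gland. Grin2c measured 232 to 656 in pineal gland and a median of 45.3 in retina, with no overlap (-2.89, SE 0.18, adjusted p = 6.8e-13). Grik5 was called by a narrow margin (0.37, adjusted p = 0.035), and the call ended in 6 of 24 fits with 1 pool left out: control pineal ZT6 pool 3, control pineal ZT20 pools 1 and 2, control retina ZT6 pool 1 and control retina ZT20 pools 1 and 3 (adjusted p 0.053 to 0.12). It also ended on deposited intensities (adjusted p = 0.52).

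The tested inhibitory channel subunits lay on the retina side. Of these, Gabra3, Gabra4, Gabrd, Gabrr1 and Glrb were tested in each tissue. The others passed the filter through retina arrays alone, so their direction was set in part by the filter. Gabra2 measured 1495 to 2330 in control retina and 1.8 to 20.1 in control pineal gland (6.37, SE 0.26), and Gabrb2 (5.47), Gabrg1 (3.95), Gabra3 (adjusted p = 1.8e-15) and Gabra4 (2.73) differed in the same direction. Gabrd was also higher in retina (0.84, SE 0.15), with pools that overlapped. The rho subunit Gabrr2 measured 2379 to 2883 in retina against 36.6 to 93.0, and Gabrr1 2324 to 3483 against 138 to 309. Their differences were 5.13 (SE 0.18) and 3.75 (SE 0.13), so Gabrr1 kept a signal above the array median in pineal gland and Gabrr2 did not. The ligand-binding glycine receptor subunits Glra2, Glra3 and Glra1 differed by 6.19, 5.46 and 4.59. Their partner Glrb, the subunit that ties glycine receptors to gephyrin, differed by only 0.44 (SE 0.08) and measured 2371 to 3535 in pineal gland, although the signals of all 3 ligand-binding partners reached at most 43.4 in control pineal pools. On probe sets without cross-hybridising suffixes, Glrb differed by 0.23 and was not called (adjusted p = 0.053).

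Receptors that act through G proteins were fewer. Grm7, Grm5, Grm8, Grm2 and Grm4 were higher in retina by 5.04, 4.59, 2.85, 2.24 and 0.96. The inhibitory serotonin receptors Htr1b (2.41) and Htr1d (1.87) and the serotonin-gated channel subunit Htr3a (1.06) were higher in retina too. All of these but Grm4 passed the filter through retina arrays alone. Htr2c, a Gq-coupled serotonin receptor best known from the choroid plexus, was higher in pineal gland, with 977 to 2665 there and 134.5 to 211 in retina (-3.20, SE 0.19, adjusted p = 4.4e-13). The summed signal of 10 choroid plexus markers ran from 29644 to 43228 in control pineal pools and from 19028 to 24092 in control retina pools, and Kl, one of them, measured 1600.3 to 3851 in control pineal and 29.2 to 57.0 in control retina pools. The part of adherent choroid plexus in the Htr2c signal was not tested.

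Night against day in the pineal gland was the comparison that gave the largest member changes within that tissue. In control glands 5 of 22 members passed, 1 higher and 4 lower at ZT20, where 25.8% of all tested genes passed, 12.3% higher and 13.5% lower. Grm4, which encodes an inhibitory metabotropic receptor that lowers transmitter release, rose, and the GABA-A subunit gene Gabrd, the NMDA subunit gene Grin2c, the AMPA subunit gene Gria1 and Glrb fell.

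Grm4 measured 86.1, 57.6 and 58.0 in the control pools at ZT6 and 198, 129.8 and 238 at ZT20. Every night pool exceeded every day pool. No day pool in either genotype reached the array median, so Grm4 passed the filter through night arrays alone and its direction was set in part by the filter. The log2 change was 1.28 (SE 0.24, adjusted p = 0.0017), and in cKO glands, from 81.9, 54.9 and 50.2 to 229, 184 and 169, it was 1.44 (SE 0.24, adjusted p = 8.8e-04). Without the cKO ZT20 pools that kept Neurod1 the second value was 1.67 (SE 0.35, adjusted p = 0.013).

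Gabrd, the delta subunit of extrasynaptic GABA-A receptors that carry tonic inhibition, measured 564, 667 and 469.6 by day and 184, 356 and 234 by night in control glands, with no overlap (-1.12, SE 0.23, adjusted p = 0.0029). In cKO glands it went from 401, 523 and 759 to 254, 257 and 297 (-0.97, SE 0.23, adjusted p = 0.0086). Without the 2 cKO ZT20 pools that kept Neurod1 this call ended (-1.05, SE 0.34, adjusted p = 0.072).

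Grin2c measured 625, 656 and 567 by day and 232, 333 and 280.4 by night in control glands (-1.10, SE 0.19, adjusted p = 9.0e-04). In cKO glands it went from 609, 895 and 516 to 344, 338 and 480.1 (-0.75, SE 0.19, adjusted p = 0.012). Day and night pools did not overlap in either genotype. The cKO call ended without cKO ZT6 pool 2 or cKO ZT20 pool 1 (adjusted p 0.051 and 0.054), and held without the 2 pools that kept Neurod1 (-0.90, adjusted p = 0.043).

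Gria1 measured 2672, 2217 and 2104 by day and 1554, 1459 and 1381 by night in control glands. No night pool reached a day pool (-0.66, SE 0.12, adjusted p = 0.0011), and a second probe set gave -0.25. In cKO glands the pools overlapped and the change of -0.33 missed the threshold (adjusted p = 0.063); the difference between the genotypes was 0.33 (SE 0.16) and was not called (adjusted p = 0.54). Glrb measured 3535, 3319 and 3099 by day and 2747, 2669 and 2371 by night in control glands (-0.35, SE 0.10, adjusted p = 0.022). Its call ended without control ZT6 pool 1 or 2 or control ZT20 pool 3 (adjusted p 0.054 to 0.094), on deposited intensities (adjusted p = 0.18) and after median centring (0.079).

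In cKO glands 5 of 22 members passed between ZT20 and ZT6, where 18.1% of all tested genes passed, 8.4% higher and 9.74% lower: Grm4, Gabrd and Grin2c as above, Chrna7, which rose, and Chrnb4, which fell. Chrna7 measured 1874, 1690.4 and 1655 by day and 2432, 2041 and 2328 by night (0.38, SE 0.10, adjusted p = 0.015), and in control glands it changed by 0.27 (adjusted p = 0.053). Chrnb4 measured 7953, 7634 and 7982 by day and 6679.5, 6682 and 7300.1 by night (-0.19, SE 0.05, adjusted p = 0.013), and in control glands it changed by -0.12 (adjusted p = 0.087). Both calls are small: Chrna7's ended without cKO ZT6 pool 3 or cKO ZT20 pool 1 (adjusted p 0.055 and 0.071), Chrnb4's without cKO ZT20 pool 1 or 2 (adjusted p 0.057 and 0.051). Without cKO ZT20 pool 1 only 2 of the 22 members were called in cKO glands. Chrnb4 also was not called after trimmed-mean scaling (-0.11, adjusted p = 0.22), median centring (-0.16, 0.16) or without the variance trend (0.064), and Chrna7 not on deposited intensities (0.25, 0.34) or after median centring (0.33, 0.065). Without the 2 pools that kept Neurod1 the changes were 0.48 for Chrna7 and -0.23 for Chrnb4 (adjusted p 0.042 and 0.035). Chrna3 changed by 0.04 at each time between genotypes and its pools overlapped in every pineal comparison of time or genotype.

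**Figure D2:**
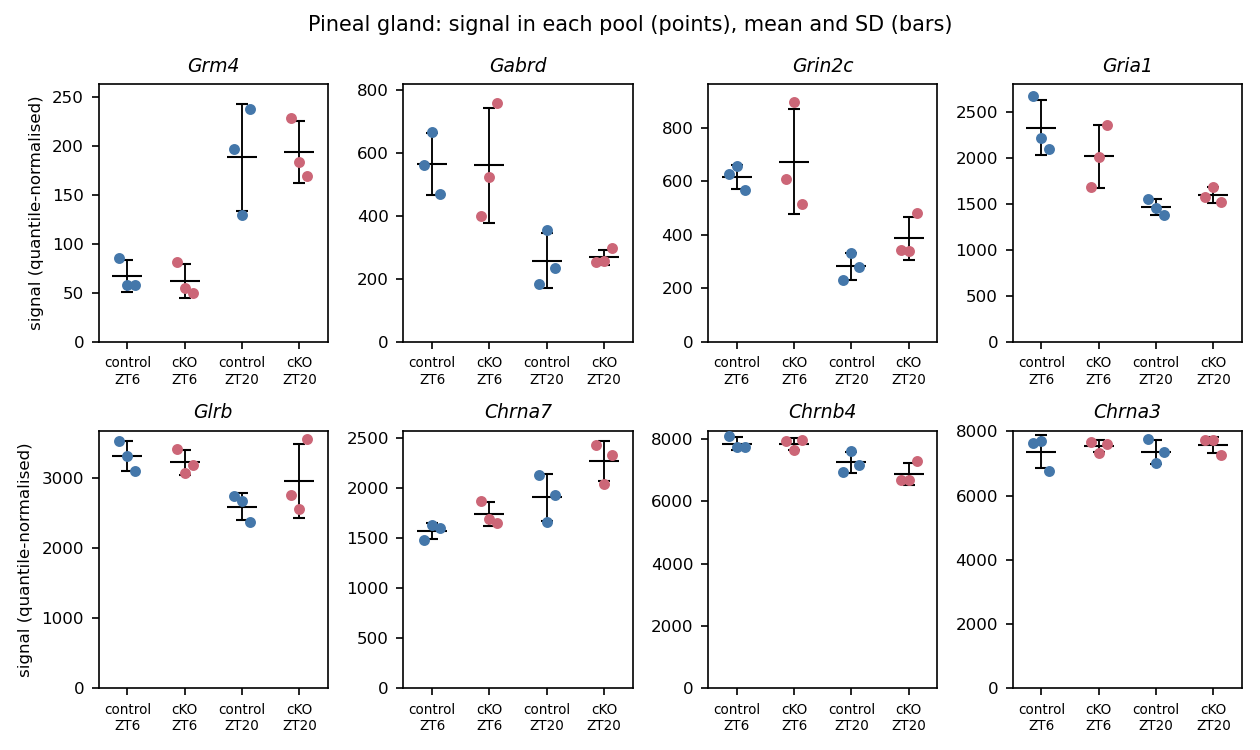
Quantile-normalised signal of 8 members in each pineal pool (points), with the mean and SD of each group (black bars), for control and cKO glands at ZT6 and ZT20. Grm4 is higher and Gabrd and Grin2c lower at ZT20 in both genotypes, with no overlap of day and night pools, and Chrna3 stays between 6767 and 7756.

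Marker lists of cell types moved with the time of day in the pineal gland, some lower and some higher at night. The summed signal of 8 rod photoreceptor markers ran from 22177 to 26151 in control pools at ZT6 and from 19233 to 19828 at ZT20, and 3 of the 6 tested fell. The sum of 9 habenula and brain neuron markers ran from 16094 to 16904 at ZT6 and from 14683 to 15314 at ZT20, and 3 of the 5 tested fell. The cone, bipolar and amacrine cell sums in control pools were also lower at ZT20 without overlap. Other sums rose without overlap: ganglion cells from 10115 to 10578 at ZT6 to 11443 to 11707 at ZT20. Mueller glia went from 26701 to 27896 to 28936 to 29648, and pinealocytes from 39882 to 40997 to 42547 to 46011. The part of these lists in the lower night signals of Gria1, Glrb, Grin2c and Gabrd was not tested. Of the pathway around the receptors, 6 of 25 tested anchoring and auxiliary genes passed in control glands, a share near the 25.8% of all genes. The scaffold gene Homer2 (1.28, SE 0.16), Homer1 (0.63), the inhibitory synapse adhesion gene Nlgn2 (0.96) and Gabarapl1 (0.18) rose, and Grip1 (-0.49), which binds AMPA subunits, and Rgs11 (-0.69) fell. Of 18 tested genes for transmitter synthesis, uptake and release 5 passed, again near that share, with the glycine transporter gene Slc6a5 higher by 2.05, the glutamate transporter gene Slc1a1 by 1.14, Maob by 0.55 and Slc17a6 by 0.30, and the vesicular glutamate transporter gene Slc17a7 lower (-0.70).

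The genotypes were then compared within the pineal gland. At ZT6 no member of 22 passed (adjusted p 0.070 or above, 6 with an unadjusted p under 0.05). Of all tested genes 1.83% passed, 0.626% higher and 1.2% lower, and 20.1% had an unadjusted p under 0.05. At ZT20 again none of 22 passed, with 6 at an unadjusted p under 0.05. None of the 11984 genes tested was called (0% of all), and 953 (7.95%) had an unadjusted p under 0.05. Both times averaged, Htr2b, a Gq-coupled serotonin receptor, was the 1 member called (-0.48, SE 0.11, adjusted p = 0.044), where 1.63% of all genes passed, 0.467% higher and 1.16% lower. At ZT6 Htr2b measured 495, 428 and 588 in control pools and 373, 248 and 376 in cKO pools. At ZT20 it measured 434, 419.9 and 472 against 358, 293 and 362. The genotypes did not overlap at either time. Over both times 3 of 8 tested meningeal fibroblast markers and 2 of 7 tested microglia markers fell as well. The fibroblast sum ran from 34119 to 36581 in control and from 29257 to 33823 in cKO pools at ZT6, and from 35056 to 40944 against 30714 to 31852 at ZT20. The microglia sum ran from 16091 to 16271 in control and from 11330 to 14214 in cKO pools at ZT6, and from 14897 to 17658 against 13432 to 14739 at ZT20. Neither sum overlapped between genotypes at either time. Their part in the Htr2b values was not tested. After median centring, where the median of all genes was 0.20, 11 of 22 members were called with both times averaged, 10 higher and 1 lower, and 43.2% of all genes were called.

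The Htr2b call rested on most of the pools. It ended in 10 of 12 fits with 1 pool left out (adjusted p 0.050 to 0.11), holding without control ZT6 pool 2 or cKO ZT6 pool 1, and it ended without the 2 ZT20 pools that kept Neurod1 (-0.44, adjusted p = 0.22). In the ZT6 comparison, where same-numbered pools deviated together, an alternative fit of all pineal pools used the pool number as a block. It called Htr2b at ZT6 (-0.59, adjusted p = 0.022, against 0.070 without the block).

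At ZT6 the largest changes without overlap of pools were those of Htr2c, Gabra4 and Htr2b. Htr2c measured 1440.2, 2226 and 1507 in control pools and 2588, 3073 and 2992 in cKO pools at ZT6 (0.76, SE 0.30, adjusted p = 0.18). Choroid plexus markers moved with it: their summed signal was 33097, 38835 and 34602 in the same control pools and 44135, 48219 and 46765 in the cKO pools, with a median change of 0.65 over 10 tested genes and none called. At ZT20, where Htr2c measured 2662, 2665 and 977 in control pools, the marker sum was 43228, 43097 and 29644. The part of choroid plexus in the Htr2c values was not tested. Gabra4 measured 106, 160.0 and 123 against 194, 233 and 246 (0.73, SE 0.31, adjusted p = 0.20). At ZT20 the largest changes without overlap were those of Gabrr1 (0.47, adjusted p = 0.63), Chrna5 (0.46, adjusted p = 0.44) and Grin2c (0.43, adjusted p = 0.59). Without control ZT20 pool 3 Htr2c was called at ZT6 (adjusted p = 0.038). Fitting the 2 ZT6 groups alone called Htr2c (adjusted p = 0.017) and Gabra4 (adjusted p = 0.043). Median centring, which moved the median of all genes to 0.25, called 8 members, 7 of them higher, and 34.8% of all genes.

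No member was called for a genotype effect that differed between ZT6 and ZT20 in the pineal gland (0 of 22, 1 with an unadjusted p under 0.05). None of all genes tested was called either (0%), and 9.67% had an unadjusted p under 0.05. The largest such difference was that of Grik3 (0.77, SE 0.35, adjusted p = 0.50). None of the 25 tested anchoring genes was called between genotypes with both times averaged, where 1.63% of all genes passed, 0.467% higher and 1.16% lower. Of 18 transmitter genes Gad1 (1.59), the enzyme that makes GABA, and Maob (0.41) rose in the same comparison.

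In retinas labelled cKO, with both times averaged, 13 of 44 members passed, 11 higher and 2 lower, where 25.3% of all tested genes passed, 13.5% higher and 11.8% lower. The median change of the 44 was 0.18, against 0.01 over all genes. At ZT6 9 members passed, 7 higher and 2 lower, against 16.6% of all genes, 9.47% higher and 7.12% lower. At ZT20 5 passed, 3 higher and 2 lower, against 10.3% of all genes, 5.65% higher and 4.68% lower. Grik3, Gria1 and Htr3a rose and Grin2d and Grina fell at both times, and Glra1 rose at ZT6.

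Grik3 encodes GluK3, a kainate receptor subunit of low glutamate affinity. It measured 156, 100.1 and 117 in control retinas at ZT6 and 199, 371 and 185 in cKO retinas. At ZT20 it measured 152, 138 and 159 against 412, 339 and 307. No cKO pool fell to the level of a control pool at either time. The changes were 0.89 at ZT6 (SE 0.23, adjusted p = 0.021) and 1.15 at ZT20 (SE 0.23, adjusted p = 0.0070), and 1.37 at ZT20 without the 2 pools that kept Neurod1 (SE 0.35, adjusted p = 0.032). The ZT6 call ended without control ZT6 pool 2 or cKO ZT6 pool 2 (adjusted p 0.089 and 0.081) and when the 2 groups were fitted alone (adjusted p = 0.052).

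Glra1, a ligand-binding glycine receptor subunit, measured 477, 432 and 373 in control and 819, 1006 and 847 in cKO retinas at ZT6. The groups lay well apart (1.03, SE 0.13, adjusted p = 2.1e-04). At ZT20 it measured 568, 609 and 686 against 943, 753 and 794, again with no overlap, but the change of 0.41 missed the threshold (adjusted p = 0.071). With both times averaged it was 0.72 (SE 0.09, adjusted p = 1.1e-04), and a second probe set gave 0.60. The difference between ZT6 and ZT20 was -0.62 (SE 0.19) and was not called (adjusted p = 0.52). Of the partner subunits, Glra3 rose by 0.45 at ZT6 (SE 0.12, adjusted p = 0.020), from 1830, 1518 and 2152 to 2451, 2605 and 2406, a call that ended without control ZT6 pool 2 or cKO ZT6 pool 2 (adjusted p 0.087 and 0.071) and after median centring (adjusted p = 0.089). Glrb was not called on the brighter probe set (0.05 with both times averaged), and its second probe set gave 0.38.

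Gria1 measured 766, 659.8 and 845 in control and 1160.4, 1412 and 1372 in cKO retinas at ZT6 (0.79, SE 0.14, adjusted p = 0.0026). At ZT20 it measured 865, 823 and 915 against 1496, 1009 and 1282 (0.52, SE 0.14, adjusted p = 0.036). The genotypes did not overlap at either time. With both times averaged the change was 0.65 (SE 0.10, adjusted p = 4.3e-04), and a second probe set gave 0.34. The other AMPA subunits were not called in any genotype comparison of the retina. The ZT20 call of Gria1 ended without any 1 of 6 pools (all 3 control ZT20 pools, cKO ZT6 pool 3 and cKO ZT20 pools 1 and 3, adjusted p 0.050 to 0.19), while without the 2 pools that kept Neurod1 the change was 0.78 (adjusted p = 0.017). It also ended on deposited intensities (adjusted p = 0.10), after median centring (0.090) and with the 2 groups fitted alone (0.060).

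Htr3a, a subunit of the serotonin-gated cation channel, measured 161, 136 and 172 in control and 264, 273 and 237 in cKO retinas at ZT6 (0.67, SE 0.15, adjusted p = 0.0093). At ZT20 it measured 191, 189 and 181 against 336, 237 and 277 (0.55, SE 0.15, adjusted p = 0.036). Every cKO pool exceeded every control pool. The ZT20 call ended without any 1 of 7 pools (all 3 control ZT20 pools, cKO ZT6 pools 1 and 2 and cKO ZT20 pools 1 and 3, adjusted p 0.051 to 0.20), and without the 2 pools that kept Neurod1 the change was 0.80 (adjusted p = 0.040). It also ended on deposited intensities (adjusted p = 0.069), without the filter (0.052), with the pool number as a block (0.055) and with the 2 groups fitted alone (0.063).

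Grin2d and Grina were the members that fell. Grin2d, an NMDA receptor subunit that gives slowly closing channels, measured 614, 492 and 518 in control and 378, 394 and 305 in cKO retinas at ZT6, and 717, 646 and 739.6 against 405, 446 and 554 at ZT20. The change was -0.57 at both times (SE 0.14, adjusted p 0.017 and 0.023), with no overlap within a time. The ZT6 call ended without control ZT6 pool 1 or cKO ZT6 pool 3 (adjusted p 0.062 and 0.080) and the ZT20 call without control ZT20 pool 1 or 3 or cKO ZT20 pool 1 or 2 (adjusted p 0.065 to 0.13).

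Grina, named for an association with NMDA receptors and known as a membrane protein of the TMBIM family, measured 5137, 4749.5 and 4507 in control and 3369.9, 3604 and 3542 in cKO retinas at ZT6. At ZT20 it measured 5132, 5153 and 4952 against 3744, 3765 and 4018. No pools overlapped. The changes were -0.45 (SE 0.07, adjusted p = 5.2e-04) and -0.40 (SE 0.07, adjusted p = 0.0015), and a second bright probe set gave -0.49 with both times averaged. On the deposited intensities without normalisation, where the median change of all genes was 0.29 at ZT6, neither gene was called at ZT6 (Grin2d -0.22, adjusted p = 0.47; Grina -0.28, adjusted p = 0.077) or at ZT20 (Grin2d -0.39, adjusted p = 0.41; Grina -0.33, adjusted p = 0.091). Averaged over both times, Grina was called there (-0.30, adjusted p = 0.0086) and Grin2d was not (-0.31, adjusted p = 0.16). Trimmed-mean scaling ended Grin2d at ZT6 and at ZT20 (adjusted p 0.057 and 0.065). Without the 2 pools that kept Neurod1 the ZT20 changes were -0.76 for Grin2d and -0.44 for Grina (adjusted p 0.033 and 0.016).

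**Figure D3:**
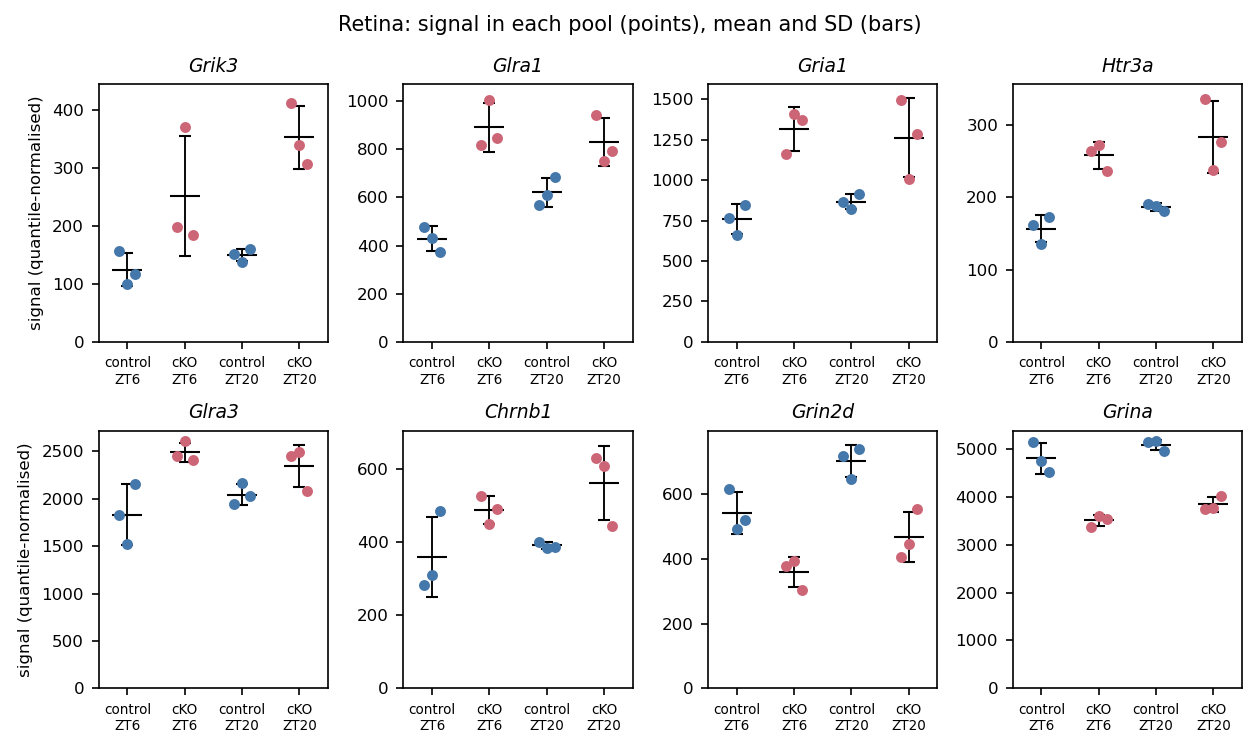
Quantile-normalised signal of 8 members in each retina pool (points), with the mean and SD of each group (black bars), for control and cKO retinas at ZT6 and ZT20. Grik3, Glra1, Gria1 and Htr3a are higher and Grin2d and Grina lower in every cKO pool than in every control pool of the same time, while Glra3 and Chrnb1 overlap at 1 of the times.

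Further members were called in cKO retina. With both times averaged 3 of 10 tested nicotinic subunits rose, where 13.5% of all tested genes did. They were Chrnb4 (0.64, SE 0.19, adjusted p = 0.022), Chrnb1 (0.48, SE 0.13, adjusted p = 0.016) and Chrna6 (0.22, SE 0.07, adjusted p = 0.041). Chrnb4, at a retinal signal of 51.6 to 115 in controls and 103 to 174 in cKO pools, was dim, and its second probe set gave 0.24. No control retina pool reached the array median, so it passed the filter through cKO arrays alone and its direction was set in part by the filter; with a filter on the mean, or without the 2 pools that kept Neurod1, it was not tested in retina. Its call ended without control ZT6 pool 2 or control ZT20 pool 2 (adjusted p 0.053 and 0.058). The metabotropic receptor Grm5 (0.36, adjusted p = 0.023), the inhibitory serotonin receptor Htr1d (0.36, adjusted p = 0.017), Glra3 (0.32, adjusted p = 0.012) and the GABA-A subunit Gabrb2 (0.22, adjusted p = 0.038) rose as well.

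Several of these calls ended when 1 pool was left out. Chrna6 was not called in 9 of 12 fits with 1 pool left out (adjusted p 0.051 to 0.099), Gabrb2 in 8 (0.063 to 0.11) and Grm5 in 4 (0.051 to 0.059): control ZT6 pool 2, control ZT20 pool 1 and cKO ZT20 pools 1 and 2. Chrna6 held only without control ZT6 pool 1, control ZT20 pool 1 or cKO ZT20 pool 2, and Gabrb2 only without control ZT6 pool 3, control ZT20 pool 2, cKO ZT6 pool 2 or cKO ZT20 pool 3. Htr1d lost its call without control ZT20 pool 2 (adjusted p = 0.051) and on another probe set (0.06, adjusted p = 0.87). Median centring ended Chrna6, Gabrb2 and Glra3 (adjusted p 0.27, 0.32 and 0.10). Fits without the variance trend ended Chrna6 and Gabrb2 (adjusted p 0.053 and 0.052), and Gabrb2 also ended after trimmed-mean scaling (0.058) and with the pool number as a block (0.063). Without the 2 pools that kept Neurod1, the both-times changes of Grik3 (1.13), Glra1 (0.81), Gria1 (0.78), Htr3a (0.73), Chrnb1 (0.57), Grm5 (0.39), Glra3 (0.36), Gabrb2 (0.28), Grin2d (-0.67) and Grina (-0.44) were called, and Chrna6 (adjusted p = 0.073) and Htr1d (adjusted p = 0.057) were not called. At ZT6 Grm5 (0.56, SE 0.15, adjusted p = 0.021) and Grm2 (0.59, SE 0.17, adjusted p = 0.029) rose. The call of Grm5 at ZT6 ended without control ZT6 pool 2 or any 1 of the 3 cKO ZT6 pools (adjusted p 0.053 to 0.089), and that of Grm2 without any 1 of the 3 control ZT6 pools or cKO ZT6 pools 2 or 3 (adjusted p 0.052 to 0.098), with the pool number as a block (0.055) and with the 2 groups fitted alone (0.065).

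Grm2, an inhibitory receptor on glutamate and acetylcholine-releasing terminals, also gave the 1 call between night and day in control retina. It measured 109.8, 106.8 and 103 at ZT6 and 179.7, 229.6 and 210.3 at ZT20 in controls, with no overlap (0.85, SE 0.17, adjusted p = 0.033), 1 of 44 members where 1.23% of all genes passed, 0.672% higher and 0.562% lower. In cKO retinas it measured 152, 179.7 and 174 at ZT6 and 203, 141 and 149 at ZT20, which overlapped. No control ZT6 pool reached the array median, and every other retina pool exceeded it. Grm2 thus passed the filter through the other groups alone. The direction of its night call and of its ZT6 genotype call was set in part by the filter. The difference between the genotypes was -0.90 (SE 0.24) and was not called (adjusted p = 0.48). The night call ended without control ZT6 pool 1 or 2 or any 1 of the 3 control ZT20 pools (adjusted p 0.076 to 0.11), with the pool number as a block (adjusted p = 0.070), and when the 2 groups were fitted alone (adjusted p = 0.071).

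In cKO retina no member of 44 passed between night and day (4 with an unadjusted p under 0.05). Of all genes 0.332% passed, and 8.19% had an unadjusted p under 0.05. The largest changes without overlap of pools were those of Htr2c (-0.49, adjusted p = 0.42), Grin2d (0.37, adjusted p = 0.51) and Gabrr1 (0.24, adjusted p = 0.54). No member passed for a genotype effect that differed between the times (0 of 44, 4 with an unadjusted p under 0.05). Of all genes 0% passed, and 8.06% had an unadjusted p under 0.05.

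The counts in retina moved with single pools and with scaling. At ZT6 5 members passed without control ZT6 pool 2 or without cKO ZT6 pool 2, 6 without cKO ZT6 pool 3 and 15 without control ZT6 pool 3; at ZT20 2 passed without control ZT20 pool 1 or 3 or cKO ZT20 pool 1, and 3 without control ZT20 pool 2. With both times averaged 17 passed without control ZT6 pool 3. The shares of all genes called in these fits are not given here. A move of the members was thus not told apart from a move of all genes. The split at ZT6 was 12 higher and 1 lower after trimmed-mean scaling, for which the share of all genes called is not given here. On deposited intensities it was 25 higher and 0 lower at ZT6, where 23.9% of all genes were called. With both times averaged the split was 26 higher and 1 lower on deposited intensities, where the median of all genes was 0.20 and 30% were called.

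Other cell types also differed between control and cKO retinas. All 5 tested microglia markers rose at both times, and their summed signal over 8 genes ran from 1841 to 2796 in control and from 6076 to 9210 in cKO pools. Of 10 Mueller glia markers 9 rose with both times averaged, with sums of 41990 to 50089 in control and 55404 to 61639 in cKO pools. Of 8 rod markers 5 fell, and of 8 cone markers 6 fell and 1 rose. Rod sums ran from 69791 to 74358 in control and from 59546 to 67005 in cKO pools. The bipolar, amacrine, ganglion and horizontal cell lists, whose cells carry most of these receptors, were also compared with both times averaged. They had 1 of 11, 3 of 8, 2 of 8 and 1 of 4 tested genes higher and 1 horizontal cell gene lower. Of all tested genes 13.5% were higher and 11.8% lower in that comparison. The log2 difference of Gapdh signal, 3′ minus 5′ probe set, was 0.395 to 0.523 in control and 0.246 to 0.322 in cKO retinas at ZT6. At ZT20 its ranges overlapped, 0.251 to 0.436 in control and 0.283 to 0.367 in cKO retinas. The same log2 difference for Actb was 1.54 to 1.76 in control and 1.13 to 1.46 in cKO retinas at ZT20. At ZT6 the Actb ranges overlapped, 1.15 to 1.44 in control and 1.20 to 1.21 in cKO retinas. The part of cell composition and of RNA quality in the receptor changes was not tested.

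Of the pathway genes in retina, 12 of 37 anchoring and auxiliary genes passed with both times averaged, 9 higher and 3 lower, with a median of 0.13, where 25.3% of all genes passed, 13.5% higher and 11.8% lower. The AMPA receptor auxiliary genes Cacng8 (0.84), Cacng7 (0.42) and Cacng4 (0.41) and the kainate receptor auxiliary genes Neto1 (0.39) and Neto2 (0.35) rose, and Homer3 (-0.46), Dlg1 (-0.18) and Gnb5 (-0.18) fell. Of 23 transmitter genes 8 rose and 2 fell, against the same shares of all genes. The GABA transporter gene Slc6a11 (0.81) and Tph2 (0.70), an enzyme of serotonin synthesis, rose most, and Slc17a7 (-0.24) and Slc1a7 (-0.37), transporters of photoreceptor and bipolar terminals, fell.

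The genotype effect differed between the tissues for 6 of 45 members, 4 more positive and 2 more negative in retina, where 15.9% of all genes passed, 8.68% more positive and 7.22% more negative. Of the 21 members tested in each tissue 5 passed, 3 more positive and 2 more negative, where 15.8% of all such genes did, 8.32% and 7.51% in the same order. On deposited intensities, where the median of all genes was 0.27 and 20.9% were called, the split was 15 more positive and 0 more negative. After median centring, with a median of -0.25, the split was 3 and 4, and the share of all genes called is not given here. Grik3 (1.05, SE 0.26, adjusted p = 0.0072), Chrnb3 (0.84, SE 0.22, adjusted p = 0.011), Gria1 (0.70, SE 0.14, adjusted p = 8.9e-04) and Chrnb4 (0.68, SE 0.18, adjusted p = 0.013) changed upward in retina relative to pineal gland, and Grin2d (-0.78, SE 0.15, adjusted p = 7.3e-04) and Grina (-0.41, SE 0.07, adjusted p = 3.3e-04) downward. Chrnb3 was not tested within the pineal gland, where it measured 4.2 to 13.4 in control and 1.2 to 11.3 in cKO pools. These signals are far below the array median and were not told apart from background. Chrnb3 was not called in any genotype comparison of the retina (0.54 at ZT6, adjusted p = 0.10). Grik3, Gria1 and Chrnb4 were among the members with higher control signals in pineal gland than in retina. Their genotype effects in pineal gland with both times averaged were -0.03, -0.05 and -0.04, with 95% confidence intervals from -0.40 to 0.34, -0.22 to 0.13 and -0.11 to 0.03. Without the 4 libraries that kept Neurod1, Chrnb3 (0.82, adjusted p = 0.067) and Chrnb4 (0.57, adjusted p = 0.13) were not called, and Grik3 (1.23), Gria1 (0.84), Grin2d (-0.81) and Grina (-0.47) were.

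**Figure D4:**
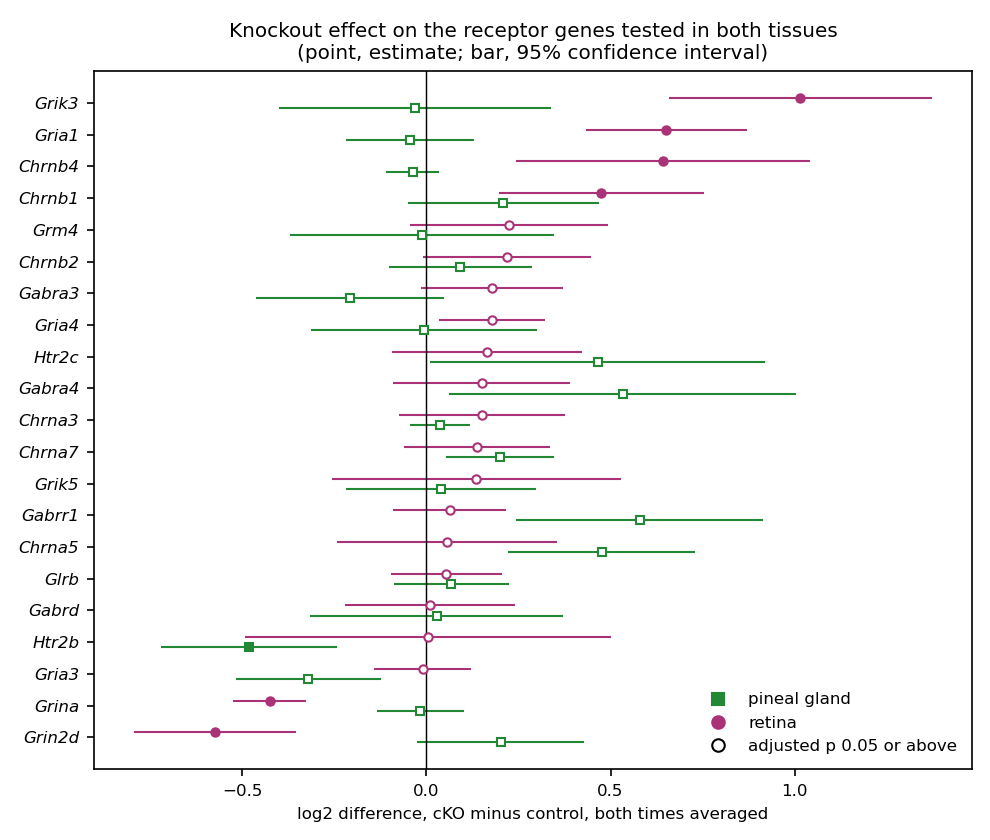
Log2 difference, cKO minus control, averaged over ZT6 and ZT20, for the 21 members tested in both tissues (squares, pineal gland; circles, retina; bars, 95% confidence intervals; open symbols, not called). Grik3 (1.02), Gria1 (0.65), Chrnb4 (0.64) and Chrnb1 (0.48) lie above 0 and Grina (-0.43) and Grin2d (-0.57) below it among the calls in retina, and Htr2b (-0.48) is the 1 call in pineal gland.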

How the data were processed

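Whole-organ RNA of 24 pools was amplified and hybridised to Affymetrix Mouse 430 2.0 arrays. The deposited values are linear intensities per probe set, with GCOS named in the submitters' processing notes; scaling and detection calls are not given in the sources used here. Array medians ran from 107.1 to 183.1 as deposited, and the number of arrays limits the precision. Of 45101 probe sets 34945 had 1 gene symbol, 932 several, 9211 none, and 64 were controls. The arrays were quantile normalised here, and log2(value + 16) went into linear models (limma 3.58.1, R 4.3.3, with eBayes and a variance trend), 1 fit for each tissue and 1 over 24 arrays, 2-sided, with Benjamini-Hochberg adjustment over all tested genes. The labels call the 3 pools of a group biological replicates.

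Named members were those with an adjusted p under 0.05, up to 12 in each direction, or else, in comparisons without a call, the 3 largest changes whose pools did not overlap; a few were fixed by name. Members, lists and tests were chosen with earlier results of these data known. Same-numbered pools deviated together in every pair (r = 0.21, 0.36 and 0.35) between pineal genotypes at ZT6, and not in the other comparisons. The main fits had no block, and the pool number as a block was an alternative only. It was applied across all pools of each fit, so also where same-numbered pools did not deviate together. A pairing at ZT6 rests on these correlations and not on the labels. Alternatives covered scaling, pseudocount, filter, probe set choice, variance trend, the block, the groups fitted, the 4 libraries that kept Neurod1, and each pool in turn. The pipeline was tested on simulated data.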

Additional observations from a re-analysis of the deposited data

Results flagged for a closer look

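In 6 members the genotype effect differed between retina and pineal gland by a test of the difference itself. The differences, retina minus pineal gland, were 1.05 for Grik3, 0.84 for Chrnb3, 0.70 for Gria1, 0.68 for Chrnb4, -0.78 for Grin2d and -0.41 for Grina. The pineal signal of Chrnb3 was far below the array median, and its genotype effect was not called within the retina. Median centring ended the call of Chrnb4 (0.44, adjusted p = 0.061), and deposited intensities ended those of Grina (-0.26, adjusted p = 0.079) and Grin2d (-0.30, adjusted p = 0.34). Groups of 3 pools are too small for the search for single outlying pools.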

How the results depend on the processing

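Over Neurod1, the named members and their alternatives 2788 values kept their direction and side of the threshold, 137 lost and 18 gained a call, and 0 reversed. This total includes members that were never called and the comparison of control tissues, where most calls lay far from the threshold. The calls lost most often were Htr2b in pineal gland with both times averaged (13 of 23 settings) and 3 in cKO retina. These were Chrna6 and Gabrb2 with both times averaged (12 of 23 each) and Htr3a at ZT20 (11 of 24). Members called on deposited intensities numbered 15 for the genotype effect between tissues, 27, 25 and 1 for cKO retina with both times averaged, at ZT6 and at ZT20, 2 and 1 for cKO pineal gland with both times averaged and at ZT6, and 0 for night in control retina. In the same order 20.9%, 30%, 23.9%, 6.5%, 2.93%, 1.8% and 0.102% of all genes were called. Median centring called 11 in pineal gland with both times averaged, 10 higher and 1 lower, where 43.2% of all genes were called. It called 8 at ZT6, where 34.8% of all genes were called. Trimmed-mean scaling called 2 in pineal gland with both times averaged, where 2.95% of all genes were called. No filter and no variance trend each left 0 there, where 0.649% and 1.31% of all genes were called. Leaving out the pools that kept Neurod1 also left Htr2b uncalled there. The fit of the groups compared alone called 2 in pineal gland at ZT6, 3 in retina at ZT20 and 0 for night in control retina. It called 4.11%, 8.83% and 0.671% of all genes in the same order. With the pool number as a replicate block 1 member was called in pineal gland at ZT6 and 0 for night in control retina, against 4.05% and 0.375% of all genes. The block also ended Gabrb2 with both times averaged (adjusted p = 0.063), Grm2 at ZT6 (0.055) and Htr3a at ZT20 (0.055) in cKO retina. The cause of these changes was not tested.

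Leaving out 1 pool at a time, the count was 41 to 42 between control tissues, 6 to 8 for the genotype effect between tissues, 4 to 7 and 2 to 6 for night in control and cKO pineal gland, and 0 to 1 for cKO pineal gland at ZT6 and with both times averaged. It was 5 to 15, 2 to 6 and 10 to 17 for cKO retina at ZT6, at ZT20 and with both times averaged, and 0 to 1 for night in control retina. It stayed at 0 to 0 for cKO pineal gland at ZT20, night in cKO retina and genotype by time in each tissue. The shares of all genes called in the fits with 1 pool left out are not given here. Signals below the array median limit what can be said of the 28 untested members.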
